A study of Rattus norvegicus with 111 samples.

Results

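The maternal and fetal livers of the unexposed control rats were compared, to describe how far the liver of a dam at term differs from the liver of her own fetus in the absence of either test chemical. Pregnant Sprague-Dawley rats, about 11 to 12 weeks old when obtained, had been given PFO4DA or PFO5DoA by mouth from gestational day 18 to 22. Both are perfluoroalkyl ether carboxylic acids. Liver samples of the dams and of their fetuses were collected 2 to 4 h after the last dose and assayed by TempO-Seq, in which pairs of short detector probes are ligated on each target RNA and then counted by sequencing. The control dams of both chemicals received 0 mg/kg/d, with 0.5% Tween-80 as the vehicle, over the same days. Of the 111 libraries in the series, 22 are described here, which are 11 maternal and 11 fetal control livers. They came from 5 control dams of the PFO5DoA experiment (dams 2263, 2264, 2265, 2278 and 2280) and 6 of the PFO4DA experiment (dams 2293, 2294, 2295, 2308, 2309 and 2310). Dam 2279, a further PFO5DoA control, was not used, as the library taken as fetal held 45504 counts. The labels do not say whether a fetal sample is 1 fetus or a pool of littermates, nor the sex of the fetuses.

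Late in gestation the fetal liver of the rat is a blood-forming organ as well as a developing metabolic one, and holds many erythroid precursors among its immature hepatoblasts and hepatocytes. The adult liver has handed blood formation over to the bone marrow and is dominated by mature hepatocytes that make bile acids, detoxify drugs and export plasma proteins. In a pregnant dam it also carries the metabolic load of gestation. These facts are background. The tables name genes by Ensembl identifier, and 0 of the 20311 identifiers had an entry in the reference table used here. The marker genes of hepatocytes, erythroid cells and other liver cell types could therefore not be looked up, the stage of a library was not checked against them, and the genes below are described by identifier, level and pattern. In bulk liver, fewer cells of a type and less RNA per cell cannot be told apart.

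The column names of the count tables give the dam but not whether the liver was maternal or fetal. The stage was chosen from the expression values. Of the 2 columns of a dam, the column with the higher Pearson correlation of log2(CPM + 1) with the single column of dam 2286, a dam at 30 mg/kg/d PFO5DoA whose only library is labelled maternal, was taken as maternal. CPM stands for counts scaled to a common library total of 1000000. It was unadjusted in this rule, in the numbers of genes that reached 1 CPM and in shares and sums over genes, and TMM-scaled, as explained below, for the levels of single genes. The correlation ran from 0.943 to 0.9728 in the columns taken as maternal, with a median of 0.9688, and from 0.8715 to 0.9084 in those taken as fetal, with a median of 0.8913. The gap within a dam was 0.0567 at the smallest, in dam 2263, and 0.1012 at the largest, in dam 2264. Spearman's correlation, the odd-numbered rows alone and the even-numbered rows alone each gave the same assignment in 11 of 11 dams. Since the rule used the values of all genes, every difference between maternal and fetal liver given here is a description without a test. Tests were run on whether the 2 sets of controls differed, which the rule did not use.

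**Figure D1:**
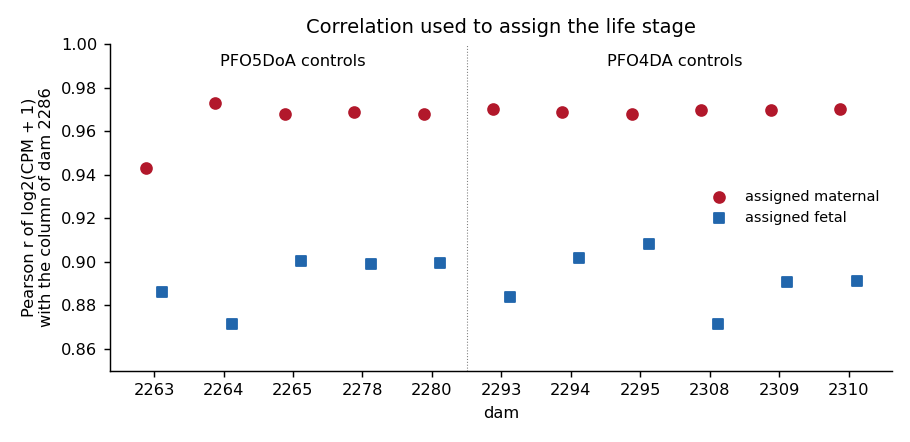
Pearson correlation of each control column with the column of dam 2286 (vertical axis, no unit) by dam (horizontal axis); red circles are the columns taken as maternal and blue squares those taken as fetal. The lowest maternal value, 0.943 in dam 2263, lies above the highest fetal value, 0.9084.

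The 22 libraries held 7740151 to 13095096 counts, and 8907 to 9669 genes reached 1 CPM in a maternal library against 10067 to 10769 in a fetal library. A pair of libraries stood apart before any comparison. The maternal library of dam 2263 had the lowest correlation of the maternal columns and 4 genes at 8 times or more the level of every other maternal library, on a scale of CPM + 1. The fetal library of dam 2278 had 8 such genes. The other 20 libraries had none. One of the 8, ENSRNOG00000017645, was at 657 CPM in that fetal library, at most 4.72 CPM in the other 10 fetal livers and at most 1.66 CPM in the maternal livers. Results with and without these dams are given where they matter.

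Maternal and fetal control livers differed broadly, and more genes were higher in the fetal liver than in the maternal liver. Of 10995 genes with enough counts, 1485 (13.5%) were at least 2-fold higher in maternal liver on average, with the same sign in each of the 11 dams, and 1911 (17.4%) were at least 2-fold higher in fetal liver by the same criterion. The scale was the log2 of CPM scaled by TMM, which lines up the bulk of genes between libraries. The median difference among the genes counted as apart was 1.70 for those higher in maternal liver and -2.0 for those higher in fetal liver, as log2 of maternal over fetal. The median of all genes was -0.065. A mean difference under 0.5 in either direction was seen in 4158 genes (37.8%). The genes at the edge of the criterion had differences of 1.0011 just inside and 0.9999 just outside on the maternal side, and 1.0005 and 0.9997 on the fetal side, given here without sign. A further 560 genes had a mean difference of 2-fold or more but not the same sign in all dams. Without dam 2263 the counts were 1578 and 2023, and without dam 2278 they were 1545 and 1950.

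The balance between the stages depended on the scaling. Maternal-higher genes made up 43.7% of the genes apart with TMM scaling, 44.2% with RLE scaling and 41.5% with upper quartile scaling. On CPM of the unadjusted totals the share was 24.8%, from 927 maternal-higher and 2809 fetal-higher genes, and the median shift of the differences was -0.409 in log2 units. The TMM factors ran from 0.691 to 1.049 in maternal and from 0.9887 to 1.307 in fetal libraries.

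**Figure D2:**
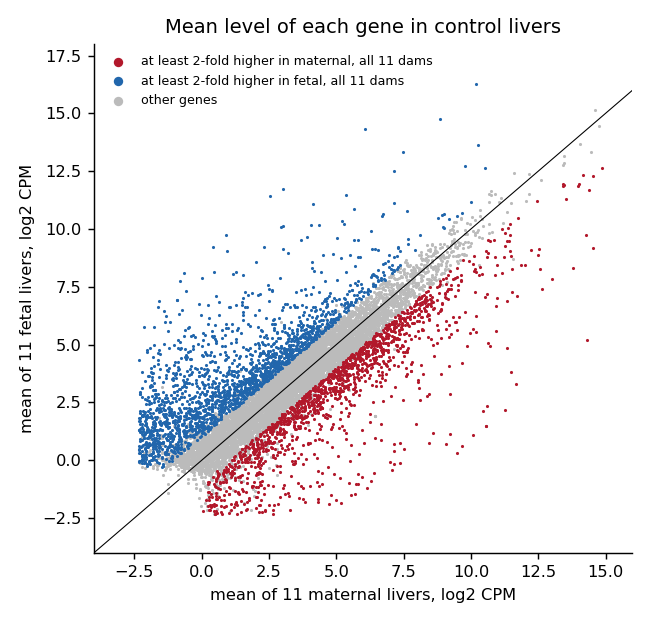
Mean log2 TMM-scaled CPM of each of 10995 genes in 11 maternal livers (horizontal axis) and 11 fetal livers (vertical axis); the line marks equal levels. Red points are the 1485 genes at least 2-fold higher in maternal liver on average, with the same sign in all 11 dams. Blue points are the 1911 genes higher in fetal liver by the same criterion. The colours follow from the plotted difference.

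Differences from 4-fold to 64-fold or more were more frequent on the fetal side, and those of 256-fold or more were few on either side. At 4-fold or more, 539 genes were higher in maternal liver and 959 in fetal liver, and at 8-fold or more the counts were 247 and 508. At 64-fold or more they were 41 and 59, and at 256-fold or more 12 and 10. The sets differed in order at 256-fold or more, with 10 and 12 in the PFO5DoA controls and 10 and 8 in the PFO4DA controls. The libraries of the stages did not overlap at all for 1096 of the maternal-higher genes (73.8%) and for 1477 of the fetal-higher genes (77.3%). These genes had been chosen for a difference with the same sign in every dam, so a lack of overlap is partly built in. The share without overlap among all genes kept is not given. In single dams, the number of genes 2-fold or more higher in the maternal liver was between 1685 in dam 2295 and 2565 in dam 2264, and the number higher in the fetal liver between 2082 in dam 2280 and 2884 in dam 2264.

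Abundance set the stages apart in another way. Among 167 genes whose mean reached 1000 CPM or more in the higher stage, 81 (48.5%) were higher in maternal liver and 32 (19.2%) in fetal liver. Among 1170 genes of 100 to 1000 CPM, 339 (29.0%) and 177 (15.1%) were. The order turned at lower levels. Of 4838 genes of 10 to 100 CPM, 653 (13.5%) were higher in maternal and 793 (16.4%) in fetal liver, and of 4820 genes under 10 CPM, 412 (8.5%) and 909 (18.9%) were.

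The maternal-higher genes held a large part of the maternal counts. Their share was 50.42% at the lowest, 56.17% at the median and 59.76% at the highest of the 11 maternal libraries, against 12.62%, 14.2% and 19.61% of the fetal libraries. The fetal-higher genes held 2.04%, 2.42% and 3.28% of the counts of maternal libraries, against 27.95%, 33.13% and 39.53% of fetal libraries. The smallest maternal share, 50.42%, was that of dam 2263, whose maternal library also had the largest share in fetal-higher genes, 3.28%. Between 24 and 61 genes made up the first 50% of the counts of a maternal library, with a median of 40, and between 29 and 87 in a fetal library, with a median of 61. The 20 most abundant genes of the maternal livers included 13 of the maternal-higher genes and 0 of the fetal-higher genes. Those of the fetal livers included 8 fetal-higher genes and 3 maternal-higher genes, and 10 genes stood in both lists of 20.

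On unadjusted CPM, more genes were detected in fetal liver alone than in maternal liver alone. A level of 1 CPM or more in all 11 maternal livers and under 1 CPM in all 11 fetal livers was seen for 54 genes. The opposite pattern, at least 1 CPM in every fetal liver and under it in every maternal liver, was seen for 333 genes. At least 1 CPM in all 22 libraries was reached by 7649 genes. At these depths 1 CPM is 7.74 to 13.1 counts, so these numbers describe detection and not absence of a transcript. On unadjusted CPM the differences also shift toward fetal liver, as given above, and the same counts on TMM-scaled CPM are not given.

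The genes with the largest differences were abundant in one stage and present as a trace in the other, which follows largely from choosing them by size. Because the identifiers carry no names, 2 genes per direction are described, those with the largest mean difference among the 616 maternal-higher and 362 fetal-higher genes of at least 50 CPM in the higher stage. ENSRNOG00000009921 had 545, 156, 704, 1103 and 831 CPM in the maternal livers of the PFO5DoA controls (dams 2263, 2264, 2265, 2278 and 2280), against 0.685, 1.11, 1.36, 1.04 and 0.864 CPM in their fetal livers. In the PFO4DA controls the lowest, median and highest were 599, 887 and 1363 CPM in maternal liver and 0.472, 1.32 and 1.94 CPM in fetal liver. The stages did not overlap in either set, and the low maternal value of dam 2264 gave the smallest difference of the 11. The mean log2 difference was 9.17 ± 0.83 (SD, n = 11 dams).

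ENSRNOG00000021405 was abundant in the dams. It had 13247, 26377, 68828, 20733 and 17440 CPM in the maternal livers of the PFO5DoA controls, in the same order of dams, against 72, 65.6, 71.1, 42.4 and 43.8 CPM in their fetal livers. The PFO4DA controls had 9845, 15955 and 34073 CPM in maternal liver and 19.8, 23.9 and 39.3 CPM in fetal liver as lowest, median and highest. Every maternal library was far above every fetal library. The fetal trace itself was higher in each PFO5DoA control than in any PFO4DA control, by a narrow margin (42.4 against 39.3 CPM). This gene was not among those that edgeR called between the sets in fetal liver, given below. The share of all genes with such a separation is not given. The mean log2 difference was 9.11 ± 0.74 (SD, n = 11 dams).

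On the fetal side, ENSRNOG00000010262 had 3.18, 2.99, 3.76, 6.6 and 3.24 CPM in the maternal livers of the PFO5DoA controls, against 3408, 3595, 3097, 2171 and 2347 CPM in their fetal livers. In the PFO4DA controls it had 4.93, 7.63 and 10.3 CPM in maternal liver and 1718, 2724 and 3803 CPM in fetal liver as lowest, median and highest. The stages did not overlap. The mean log2 difference was -8.90 ± 0.88 (SD, n = 11 dams). ENSRNOG00000038135 had 1.85, 1.55, 0.884, 2.3 and 1.12 CPM in the maternal livers of the PFO5DoA controls, against 849, 1531, 576, 302 and 1031 CPM in their fetal livers. The PFO4DA controls had 0.989, 2.22 and 2.77 CPM in maternal liver and 791, 873 and 1311 CPM in fetal liver. The fetal liver of dam 2278, which stood apart above, had the lowest fetal level. The mean log2 difference was -8.83 ± 0.84 (SD, n = 11 dams).

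**Figure D3:**
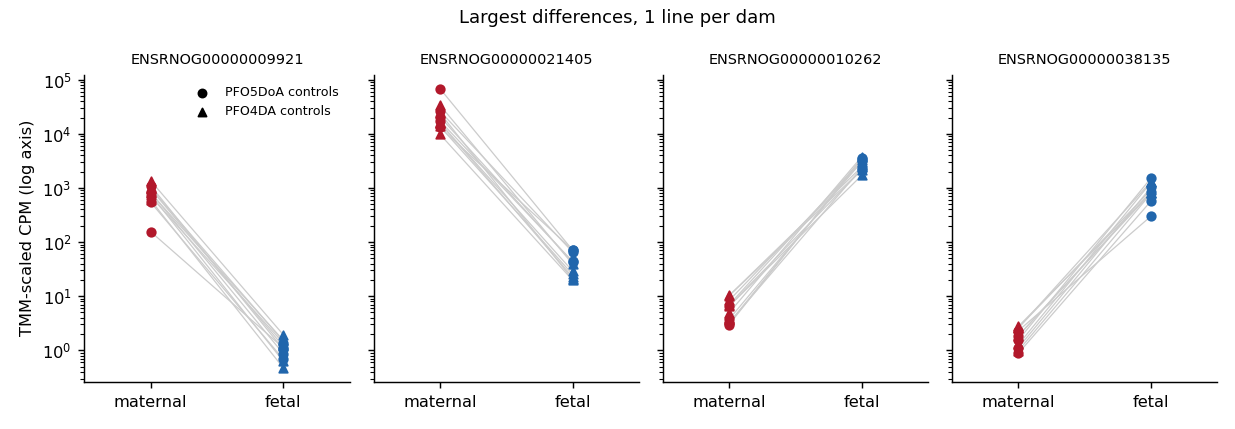
TMM-scaled CPM (log axis) of the 2 genes with the largest maternal-higher and the 2 with the largest fetal-higher difference, with maternal on the left and fetal on the right of each panel. Each line joins the 2 livers of 1 dam; circles are PFO5DoA controls and triangles PFO4DA controls, and in all 4 panels the 11 lines run the same way.

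The 12 largest differences of each direction had the same form, again largely by the choice. The 12 maternal-higher genes had mean log2 differences between 8.10 and 9.17, mean levels of 570 to 23687 CPM in maternal liver and of 1.12 to 41 CPM in fetal liver. The 12 fetal-higher genes had mean log2 differences between -7.90 and -8.90, with 0.143 to 69.6 CPM in maternal liver and 110 to 20684 CPM in fetal liver. Summed over the 41 maternal-higher genes of 64-fold or more, a fetal library held 0.36% to 0.645% of the mean maternal level in the PFO5DoA controls and 0.221% to 0.548% in the PFO4DA controls. Over the 59 fetal-higher genes of that size, a maternal library held 0.557% to 1.357% of the mean fetal level in the PFO5DoA controls and 0.693% to 1.637% in the PFO4DA controls. That these sums are small follows from the 64-fold criterion. The source of these traces was not tested.

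The controls of the 2 chemicals resembled each other in this. In the PFO5DoA controls, 1606 genes (14.6%) were higher in maternal and 2034 (18.5%) in fetal liver, and in the PFO4DA controls 1746 (15.9%) and 2190 (19.9%), each with the same sign in all dams of the set. The sets shared 1328 maternal-higher genes, which are 82.7% of the PFO5DoA list and 76.1% of the PFO4DA list, and 1731 fetal-higher genes, 85.1% and 79.0% of the lists. No gene was apart in opposite directions (0 of 10995). Across genes, which are not independent, the mean differences of the sets correlated at r = 0.962 (Spearman's rho 0.929), with no libraries in common but with the same probes. In both sets the stage was assigned by likeness to the same column, that of dam 2286. The shared direction of the differences is therefore partly built in. The mean differences of the sets lay within 1 log2 unit of each other for 10621 genes (96.6%).

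**Figure D4:**
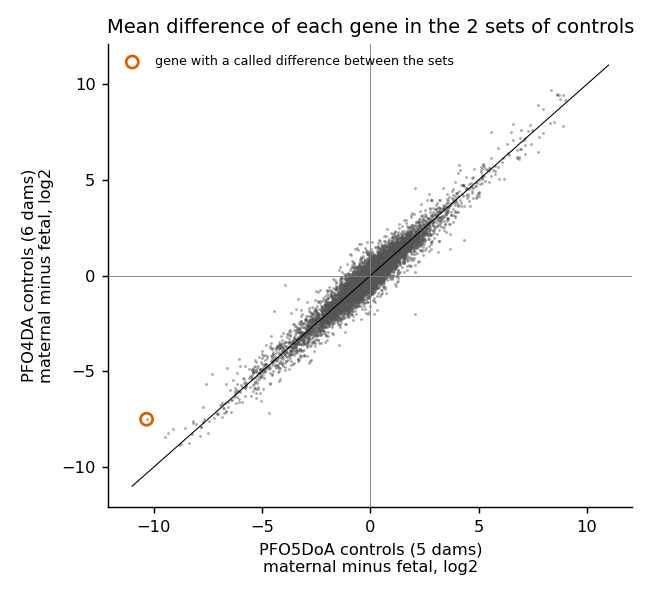
Mean maternal minus fetal log2 difference of each of 10995 genes in the 5 PFO5DoA control dams (horizontal axis) and the 6 PFO4DA control dams (vertical axis), with the line of equality. The circled gene, ENSRNOG00000009073, is the gene whose difference between the sets passed the test.

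Whether the maternal minus fetal difference was the same in the 2 sets was tested gene by gene with edgeR's quasi-likelihood test, with the dam as a block. The edgeR p-values here and below set a difference against the spread between dams. A single gene (0.0091% of 10995) passed a Benjamini-Hochberg adjusted p of 0.05. An unadjusted p under 0.05 was found for 802 of the 10995 genes, where chance alone gives a share of about 0.05. DESeq2 called 3 genes, and edgeR called 105 of 19263 genes, 37 higher and 68 lower, with no filter on low counts. The gene called with the filter was ENSRNOG00000009073, a fetal-higher gene. Its maternal level was 0.41, 0, 0.442, 0.143 and 0.335 CPM in the PFO5DoA controls and 1.79 at the lowest, 3.49 at the median and 5.54 CPM at the highest in the PFO4DA controls. Its fetal level was 700, 517, 766, 301 and 590 CPM in the PFO5DoA controls, against 417, 621 and 962 CPM in the PFO4DA controls. The sets overlapped in fetal liver and not in maternal liver, where the PFO5DoA controls held 12 counts in all and the PFO4DA controls 177. The log2 difference between the sets was -3.52 (SE 0.52, adjusted p = 0.03461 by edgeR). The number called was 0 when dam 2263, 2264, 2265, 2278, 2295, 2308, 2309 or 2310 was left out and 0 when dam 2279 was kept, so the call needed each of those 8 dams.

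The sets of controls were also compared directly within each stage. In maternal liver 7 of 9501 genes (0.0737%) differed by edgeR at an adjusted p under 0.05, with 5 higher and 2 lower in the PFO5DoA controls than in the PFO4DA controls. In fetal liver 8 of 10525 genes (0.076%) differed by edgeR and all 8 were higher in the PFO5DoA controls. DESeq2 called 12 genes in maternal liver, 10 higher and 2 lower, and 29 in fetal liver, 24 higher and 5 lower, so the single direction in fetal liver did not hold with that tool. Unadjusted edgeR p-values under 0.05 were found for 494 of 9501 genes in maternal liver and 670 of 10525 in fetal liver. Chance alone gives a share of about 0.05. Of the genes called by edgeR, 5 were called in both stages, with the same direction in 5 of 5. All control dams received the vehicle, and the sets were deposited as separate tables, so animals, timing and processing cannot be told apart as sources of these differences. Without dam 2263, 12 genes were called in maternal liver.

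The genes with the smallest p-values in each direction are given with their levels. ENSRNOG00000011059 had 59.6, 44.3, 64, 61.5 and 53.4 CPM in the maternal livers of the PFO5DoA controls, against 6.93 at the lowest, 9.12 at the median and 12.8 CPM at the highest in those of the PFO4DA controls. In fetal liver it had 14, 31.9, 26.7, 39.5 and 45.1 CPM in the PFO5DoA controls and 4.23, 5.99 and 7.53 CPM in the PFO4DA controls. The sets did not overlap in either stage. Its log2 difference was 2.56 in maternal liver (SE 0.17, adjusted p = 1.226e-06 by edgeR) and 2.40 in fetal liver (SE 0.27, adjusted p = 0.001567). ENSRNOG00000023079 followed the same pattern, with 21.4, 32, 28.2, 32.3 and 23.4 CPM in the maternal livers of the PFO5DoA controls and 5.51, 6.61 and 8.48 CPM in those of the PFO4DA controls. Its log2 difference was 2.02 in maternal liver (SE 0.17, adjusted p = 1.019e-05 by edgeR) and 1.84 in fetal liver (SE 0.21, adjusted p = 0.001609).

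The lower genes in maternal liver were ENSRNOG00000009073, described above, and ENSRNOG00000030848. ENSRNOG00000030848 had 1 count in all over the 5 maternal livers of the PFO5DoA controls and 469 counts over the 6 of the PFO4DA controls, where it ran from 2.95 to 20.8 CPM with a median of 8.03 CPM (adjusted p = 0.0004783 by edgeR). Its fetal values were uneven, at 36.9 CPM in dam 2278 and at most 0.0852 CPM in the other 4 PFO5DoA controls, against 2.72 to 38.9 CPM in the PFO4DA controls. In fetal liver the smallest p-values were those of ENSRNOG00000064656 and ENSRNOG00000009522. ENSRNOG00000064656 had 3.94, 4.26, 4.34, 4.89 and 4.08 CPM in the fetal livers of the PFO5DoA controls and 0.471, 0.857 and 1.13 CPM as lowest, median and highest in those of the PFO4DA controls, with a log2 difference of 2.33 (SE 0.22, adjusted p = 0.0004985 by edgeR). ENSRNOG00000009522 had 3.68, 3.49, 3.83, 6.15 and 1.34 CPM against 0, 0.0845 and 0.18 CPM, from 229 and 5 counts in all, with a log2 difference of 5.50 (SE 0.54, adjusted p = 0.0004985).

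Within a stage the livers were alike, and the dams differed a little less among fetuses. Pairs of maternal libraries correlated at 0.920 to 0.976 across genes (median 0.965), pairs of fetal libraries at 0.908 to 0.981 (median 0.965) and maternal with fetal libraries at 0.721 to 0.818 (median 0.780). The stage was itself assigned by correlation, so the higher values within a stage are partly built in. The SD between dams within a set, on the log2 scale, had a median over genes of 0.389 in maternal and 0.364 in fetal liver, and was larger in maternal liver for 6304 genes (57.3%). An SD of 1 or more was found in 321 genes in maternal liver, 217 in fetal liver and 64 in both.

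A mother and her own fetus tended to deviate from their sets in the same genes. For each liver the deviation of every gene from the mean of its stage and set was taken, and the deviations of a mother were correlated with those of each fetus of the set. The correlation with the own fetus was above 0 in 10 of 11 dams and averaged 0.111, against -0.0246 with the other fetuses. The deviations of a set sum to 0 for each gene, so the second mean largely follows from the first. In an exact permutation test that exchanged fetuses within each set (86400 pairings, one-sided) the p was 0.00064. Exchanging fetuses within runs of consecutive dam numbers gave a p of 0.00694 over 432 pairings. In the PFO5DoA controls alone the mean was 0.137 and the exact p was 0.0833 over 120 pairings, and in the PFO4DA controls alone it was 0.0893 and 0.0014 over 720 pairings. Over the 10521 genes with an SD under 1 in both stages, the exact one-sided p of the permutation test within sets was 0.04344. For these genes it was 0.2083 in the PFO5DoA controls alone and 0.0097 in the PFO4DA controls alone. The correlations were small, and the comparison of mothers with their own fetuses was chosen after the data were seen.

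**Figure D5:**
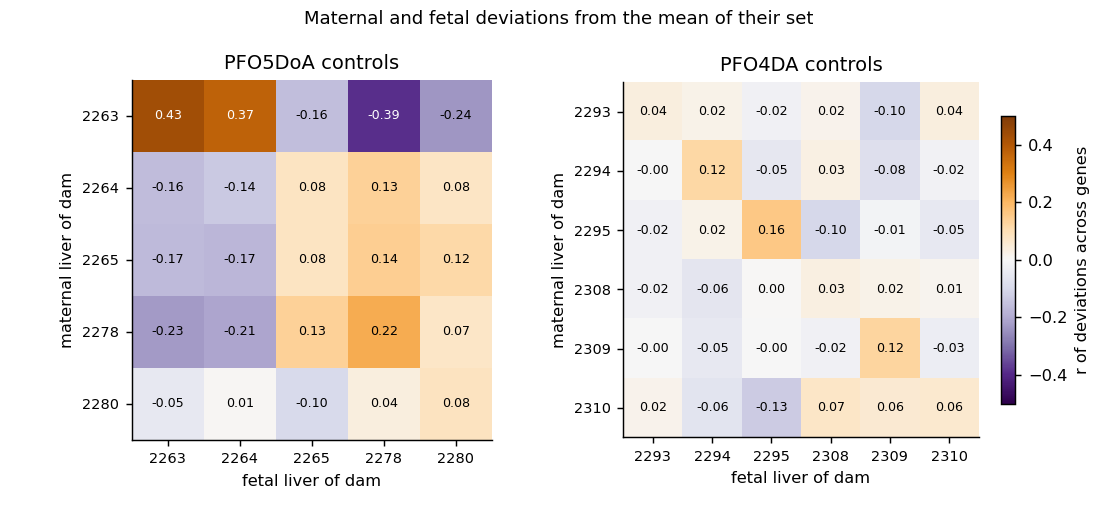
Pearson correlation across 10995 genes between the deviations of each maternal liver (rows) and each fetal liver (columns) from the mean of its stage and set, for PFO5DoA controls on the left and PFO4DA controls on the right; own pairs lie on the diagonal. The diagonal is above 0 in 10 of 11 dams, and the maternal liver of dam 2263 also correlates with the fetal liver of dam 2264 (0.373).

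The own-pair values ranged widely in the PFO5DoA controls. They were 0.433 in dam 2263, -0.136 in dam 2264, 0.082 in dam 2265, 0.221 in dam 2278 and 0.083 in dam 2280. In the PFO4DA controls they lay closer together, from 0.034 in dam 2308 to 0.158 in dam 2295. The own fetus had the highest correlation of the set for 7 of 11 mothers. The maternal liver of dam 2263 was nearly as close to the fetal liver of dam 2264, at 0.373, as to its own. Livers were paired by the dam identifier. By the sample titles, the maternal liver of dam 2263 is number 2 and its fetal liver number 1, and those of dam 2264 are numbers 1 and 2, while in the other 9 dams both livers carry the same number. Title numbers also differ between the 2 livers of some dosed dams, so a difference in number is no conflict with the dam identifier. Whether the livers of dams 2263 and 2264 were exchanged was not tested. Without dam 2263 the exact one-sided p of the permutation test was 0.00174, and without dam 2264 it was 6e-05, the smallest it can give.

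A few genes split the livers of a stage into a high and a low group. A gap of 8-fold or more in CPM + 1 with at least 2 livers on each side was found in 9 genes in fetal liver and 8 in maternal liver, 15 genes in all with 2 in both. The genes named here were chosen after their values were seen and carry no test. ENSRNOG00000057231, ENSRNOG00000060048 and ENSRNOG00000060496 split the fetal livers in the same way. ENSRNOG00000057231 had 142, 178, 146, 159 and 164 CPM in the fetal livers of dams 2263, 2278, 2293, 2309 and 2310 and at most 2.86 CPM in the other 6 fetal livers. The same 5 fetal livers were the high ones for ENSRNOG00000060048 and ENSRNOG00000060496, which reached 53 and 26.4 CPM. In the 11 maternal livers these genes stayed at or under 0.718, 0.704 and 0.128 CPM. The 5 high livers fell in both sets of controls, with 2 in the PFO5DoA set and 3 in the PFO4DA set.

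In maternal liver, ENSRNOG00000063815 had 4031, 2406, 4476, 154 and 46.7 CPM in the PFO5DoA controls, in the order of dams given above, and ran from 69.7 to 2961 CPM in the PFO4DA controls. The high values were those of dams 2263, 2264, 2265, 2293, 2308 and 2309. ENSRNOG00000062869 was high in the same 6 dams, with 4.02 to 380 CPM over all 11. In fetal liver these genes stayed at or under 4.03 and 0.343 CPM. ENSRNOG00000067284 split both stages. It was low in the maternal livers of dams 2264, 2280 and 2308, at 0.997, 4.47 and 8.33 CPM, and at 101 CPM or more in the other 8. In fetal liver it was low in dams 2264 and 2308, at 2.21 and 2.53 CPM, and high in dam 2280 at 54.4 CPM.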

How the data were processed

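Estimated counts, without normalization, were deposited in a separate table for each chemical. Of these, 11.9% of the control values had decimals, and all were rounded to whole numbers. Per the labels' protocols the TempO-Seq panel held 22253 probes for 20924 genes. Per the submitters' processing notes, the genome build was mRatBN7.2 and the tools included STAR 2.7.8a, Partek and DESeq2, with no roles given. All 111 columns were mapped to dams. Stage was assigned by correlation as described in the report, and the members, lists and alternatives were chosen with earlier results of these data known.

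Genes were kept by filterByExpr on stage and chemical, and log2 CPM used TMM and a prior count of 2 (edgeR 4.0.16, R 4.3.3). A gene was called apart at a mean difference of 1 or more with the same sign in every dam. Maternal and fetal livers of a dam come from the dam named in the labels, so pairing is by animal. The tests between sets used robust glmQLFit and glmQLFTest with Benjamini-Hochberg adjustment. These tests between sets were tried on simulated data, which had a fixed spread and no effect of the dam. DESeq2 1.42.0 was an alternative. SEs are the log2 difference over the root of the F statistic. Genes to be named were those with the largest mean differences at 50 CPM or more, limited to 2 identifiers per direction, and of each test those with the smallest p. The 28 marker and gene lists, and sequences, could not be matched to identifiers and are not reported. All 50 pairs of libraries of a set and stage differed by more than sampling noise (chi-square per degree of freedom at least 15, genes of 20 counts or more).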

Additional observations from a re-analysis of the deposited data

Results flagged for a closer look

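Within each set and stage, 46 groups of 5 or 6 values were searched for a single value far from the others, and 5 were found. For independent values with a normal spread, chance alone gives about 1 in 20. These groups share libraries, and a count of genes that is 0 in the other libraries is flagged at any higher value. The number found therefore cannot be set against that rate. The maternal library of dam 2263 had a correlation of 0.943 with the column of dam 2286, below the other PFO5DoA maternal controls, and 4 genes at 8-fold or more above every other maternal liver. The fetal library of dam 2278 had 8 such genes, and the median difference of all genes in dam 2278 was -0.107, lower than in the other PFO5DoA dams. In the PFO4DA controls, the maternal library of dam 2310 held 1.637% of the mean fetal level of the genes 64-fold or more higher in fetal liver. The cause of these values was not tested.

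The maternal minus fetal difference of ENSRNOG00000009073 differed between the sets of controls by -3.52 on the log2 scale in the interaction test of edgeR. It was lost when any of 8 dams was left out, as given in the report.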

How the results depend on the processing

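RLE and upper quartile scaling, both other prior counts, the stricter filter and no filter left each count of genes apart within 1.5 times. Stage by Spearman's correlation, odd rows or even rows gave the same assignment of columns, so the counts are the same by construction. On unadjusted CPM the maternal-higher counts were 973 (PFO5DoA), 1135 (PFO4DA) and 927 (both), and the fetal-higher count of the PFO5DoA controls was 3112. At a minimum of 4-fold the maternal-higher and fetal-higher counts were 584 and 963, 581 and 1019, and 539 and 959. With dam 2279 kept, the fetal-higher counts were 811 and 774; its fetal library held 45504 counts. Leaving out 1 dam gave ranges of 1515 to 1722 and 1988 to 2143 in the PFO5DoA controls, 1679 to 1874 and 2177 to 2279 in the PFO4DA controls, and 1447 to 1578 and 1898 to 2023 in both.

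With no replicate block, as non-overlapping libraries of unpaired dams, 1069 and 1468 genes were apart in both sets together; here the difference of stage medians on the log2 scale had to reach 2-fold, where the 1096 and 1477 genes of the report had to reach it in the mean over dams. The interaction test called 3 genes with DESeq2, 105 with no filter on low counts, 0 with dam 2279 kept, 1 without the dam block and 0 to 1 without a dam. The maternal test called 12 genes with DESeq2, 12 without the filter and 6 to 12 without a dam. The fetal test called 29 with DESeq2, 19 without the filter, 3 with dam 2279 kept and 6 to 11 without a dam. Except where named, the cause was not tested. A replicate block on the title numbers gave 5 maternal calls and 6 fetal calls, 5 higher and 1 lower. Same-numbered deviations correlated from -0.017 to 0.047 (maternal) and from -0.451 to 0.344 (fetal), so the numbers do not pair the sets. The mother and fetus p was 0.02344 to 0.04344 over genes of lower spread, 0.00694 within runs of dam numbers and 6e-05 to 0.00389 without a dam, where 6e-05 is the smallest it can give. Removal of marker genes from the stage rule was not run, since the identifiers had no names. Genes under 1 CPM rest on few counts.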
